A study of Polypterus senegalus with 8 samples.

Results

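The miRNAs miR-184, miR-203 and miR-205 were followed in the regenerating pectoral fin of the bichir, *Polypterus senegalus*, a ray-finned fish that regrows an amputated fin. The members were all entries of the deposited table named miR-184, miR-203 or miR-205, whatever the letter, copy or arm, and 4 of the 153 listed miRNAs met this rule. These were miR-184, miR-203a, miR-203b and miR-205. Small RNA was sequenced from uninjured fins (0 days post amputation, dpa) and from fins 3, 7 and 14 days after amputation under MS-222 anaesthesia. Each stage was 1 library made from a pool of at least 4 fin tissues, and no transgene, drug or genotype distinguished the groups. All fish came from the pet trade, and their strain and sex are not given in the sources used here. With 1 library per stage no difference has a replicate check, so no p-value is given. All intervals are 95% intervals that cover counting error only.

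A miRNA is a short RNA that guides a silencing complex to messenger RNAs, chiefly through its seed, bases 2 to 8 from the 5′ end. These 3 families are known for their abundance in stratified epithelia. In mouse skin, miR-203 marks the differentiating layers above the basal layer and represses the stem cell factor p63, and in the zebrafish caudal fin it represses lef1, a mediator of Wnt signalling. In mouse skin, miR-205 acts in stem and progenitor cells and represses negative regulators of PI3K signalling. In human keratinocytes it represses the lipid phosphatase SHIP2, encoded by INPPL1, and miR-184 antagonises that repression. After a fin is cut, epidermal cells migrate over the stump and form the wound epidermis, under which the blastema of undifferentiated cells gathers.

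The mature sequences of the study's miRNA list are shown because they set which reads each member can hold, with the seed in capitals and U written as T.
miR-184 (3p): tGGACGGAgaactgataagggt
miR-203a (3p): gTGAAATGtttaggaccacttg
miR-203b: aGTGGTTCtagacagttcaaca
miR-205 (5p): tCCTTCATtccaccggagtctg
All 4 are 22 bases long and no seed was shared, either among the members or with any other of the 154 bichir sequences in the list. The nearest other bichir sequence matched miR-184 at 13 bases and each of the other members at 12, so reads of one member could not readily be counted for another. Bichir miR-203a and miR-205 were identical to the zebrafish and axolotl sequences. Bichir miR-184 was identical to the axolotl sequence and carried T22C against zebrafish, where the first letter is the bichir base and positions are counted from the 5′ end.

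The row named miR-203b-3p differs in kind from the others. Its sequence carries a bracketed second name in the study's list, miR-203b-5p, as do 11 of the 154 bichir sequences. The zebrafish sequences of both arms show what it resembles.
zebrafish miR-203b-5p: aGTGGTTCtcaacagttcaaca
zebrafish miR-203b-3p: tGAAATGTtcaggaccacttga
Against zebrafish miR-203b-5p it had the same seed and 20 of 22 bases, with A10C and G11A, the bichir base first. Against zebrafish miR-203a-5p it also had 20 of 22 bases, with A10T and G11A. Against zebrafish miR-203b-3p the best ungapped alignment matched 10 bases. If the counts follow the listed sequence, the row thus holds reads of a 5p arm, the strand that faces the 3p arm in the hairpin, and which of the hairpins, miR-203a or miR-203b, it came from cannot be told apart by this comparison. It is called miR-203b below as in the table. Genome positions are not given because no bichir miRNA annotation was used here.

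Taken in the order 0, 3, 7 and 14 dpa, which all lists of 4 values below follow, the small RNA libraries held 6083774, 3353354, 196763 and 6858045 miRNA reads. The 7 dpa library was the shallowest, and there 1 read equalled 5.08 CPM, the count scaled to 1000000 miRNA reads in a library. All 4 members were well above this step in every library, the lowest being 69 reads of miR-203b at 7 dpa. The composition of the libraries also moved. miR-21 took 14.5%, 60.3%, 52.7% and 62.5% of the reads. The 5 muscle miRNAs (miR-1b, miR-133a, miR-206, miR-208 and miR-499) summed to 24.8%, 0.864%, 0.265% and 2.24%, and none of the 5 was at 0 reads in any library. The 6 blood miRNAs (miR-451, miR-144, miR-142a, miR-223, miR-150 and miR-155) summed to 0.562%, 1.40%, 3.11% and 0.198%, again with none at 0. These 6 did not move together. From 3 to 7 dpa miR-451 fell from 4098 to 1448 CPM and miR-144 from 2986 to 71.2 CPM. Over the same step miR-142a, miR-223, miR-150 and miR-155 rose, miR-150 from 296 to 9092 CPM. At 14 dpa miR-451 was at 662 CPM, above its 140 CPM at 0 dpa. The part of these shifts in the results below was not tested, beyond the other scalings given with them. In a library of whole tissue, fewer cells of a type and less RNA per cell cannot be told apart.

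Scaled by library totals, miR-184 was the most even of the 4. Its reads numbered 330501, 135829, 10707 and 416285, which is 54325, 40505, 54416 and 60700.2 CPM. It was the third most abundant of the 153 miRNAs at 0 and 7 dpa and the second at 3 and 14 dpa. The 0 and 7 dpa levels were not distinguishable, with shares of 5.43% (Wilson interval 5.41 to 5.45) and 5.44% (5.34 to 5.54). The highest and lowest levels differed by 0.58 on the log2(CPM + 1) scale, the 3rd smallest range among the 142 miRNAs that averaged 10 CPM or more, whose median range was 3.67. Without the 7 dpa library the range was the 9th smallest. This evenness belongs to that scaling. With a trimmed mean of log ratios the range of miR-184 was 1.64, the 20th smallest, and that of miR-203b was 1.56. With a median of ratios they were 1.84 and 1.34, and with totals without miR-21 they were 1.35 and 0.90, so that miR-203b was then the more even.

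**Figure D1:**
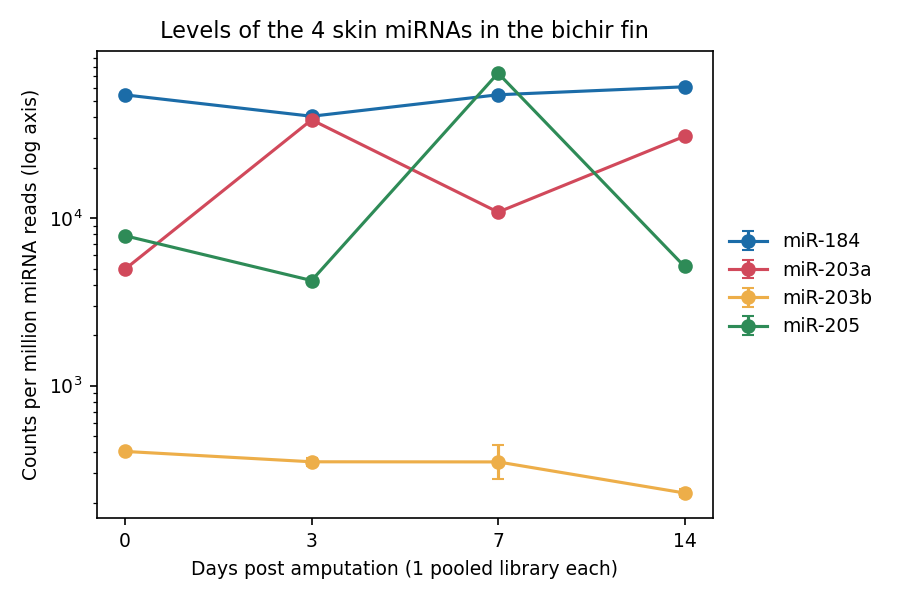
Levels of the 4 skin miRNAs in CPM (log axis) against days post amputation, 1 pooled library each. Bars are 95% Wilson intervals of the count and are mostly smaller than the points. miR-184 stays between 40505 and 60700.2 CPM, miR-203a is high at 3 and 14 dpa, and miR-205 is high at 7 dpa only.

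miR-203a was higher at every stage after amputation than before it. Its reads numbered 30187, 129341, 2134 and 210955, or 4962, 38571, 10845.5 and 30760.2 CPM. It moved from the 29th most abundant miRNA at 0 dpa to the 3rd at 3 and 14 dpa, and was the 9th at 7 dpa. Against 0 dpa the log2 change was 2.96 on day 3 (interval 2.94 to 2.98), 1.13 on day 7 (interval 1.06 to 1.19) and 2.63 on day 14 (interval 2.61 to 2.65). These 3 comparisons share the 0 dpa library, so an unusual 0 dpa library would move them together. The intervals of neighbouring libraries in its order, 0, 7, 14 and 3 dpa from lowest to highest, did not overlap. The 7 dpa level was 3.56-fold below the 3 dpa level and the 14 dpa level was 2.84-fold above the 7 dpa level. Of the 142 miRNAs, 1 was further above its 0 dpa level than miR-203a at 14 dpa, 4 were at 3 dpa and 43 were at 7 dpa, with larger changes downward not counted here.

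miR-203b, listed with a 5p-arm sequence, did not share the large changes of miR-203a. It had 2464, 1178, 69 and 1569 reads, or 405, 351, 351 and 229 CPM. The levels at 3 and 7 dpa were not distinguishable, and at this depth the 7 dpa interval of 277 to 444 CPM also held the 0 dpa level. With library totals the 14 dpa level was the lowest, with a log2 change from 0 dpa of -0.82 (interval -0.91 to -0.73). With a trimmed mean of log ratios or a median of ratios the 7 dpa level was the lowest. For each read of miR-203b there were 12.3 reads of miR-203a (Clopper-Pearson interval 11.8 to 12.8) before amputation. At the 3 later stages there were 109.8 (103.7 to 116.4), 30.9 (24.3 to 39.9) and 134.5 (127.9 to 141.4). This ratio was 8.96-fold (8.35 to 9.63), 2.52-fold (1.98 to 3.27) and 11.0-fold (10.3 to 11.7) that at 0 dpa. Ratios within a library do not depend on how the libraries are scaled.

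miR-205 was high in 1 library only. It had 47697, 14219, 14415 and 35277 reads, or 7840.03, 4240.2, 73261 and 5144 CPM. The reads at 3 and 7 dpa were nearly equal in number, although the 3 dpa library was 17.0-fold deeper than the 7 dpa library. At 7 dpa miR-205 was the 2nd most abundant miRNA, ahead of miR-184, with 7.33% of the reads (Wilson interval 7.21 to 7.44), and in the other libraries it was the 23rd to 25th. Against 0 dpa its log2 change was -0.89 on day 3 (interval -0.91 to -0.86), 3.22 on day 7 (interval 3.20 to 3.25) and -0.61 on day 14 (interval -0.63 to -0.59). From lowest to highest the order was 3, 14, 0 and 7 dpa, with no overlap of intervals. The step from 3 to 7 dpa was 17.3-fold upward and that from 7 to 14 dpa was 14.2-fold downward. Among the 142 miRNAs that averaged 10 CPM or more, the change of miR-205 from 0 to 7 dpa was the 15th highest. Its change from 3 to 7 dpa was the 20th highest. Its pattern thus rests on the 7 dpa library. Without that library its range was 0.89, the 21st smallest of 142, and with it 4.11, above the median of 3.67. When every library was thinned to 196763 reads, the depth of the 7 dpa library, the change at 7 dpa was 3.25. Thinning leaves the 7 dpa counts as they are, so this value does not test that library. The 7 dpa library was also the highest of the 4 for 45.1% of the 142 miRNAs under library totals and for 31.7% with a trimmed mean of log ratios.

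Summed, the 4 members took a larger share of the miRNA reads after amputation than before and changed in make-up. The sum was 6.75% (Wilson interval 6.73 to 6.77), 8.37% (8.34 to 8.40), 13.9% (13.7 to 14.0) and 9.68% (9.66 to 9.71). Its log2 change against 0 dpa was 0.31, 1.04 and 0.52. miR-184 made up 80.4%, 48.4%, 39.2% and 62.7% of the summed reads. miR-203a made up 7.35%, 46.1%, 7.81% and 31.8%, and miR-205 made up 11.6%, 5.07%, 52.8% and 5.31%. The excess over 0 dpa was therefore carried mainly by miR-203a at 3 and 14 dpa and mainly by miR-205 at 7 dpa. miR-203b was between 0.236% and 0.600% of the sum.

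**Figure D2:**
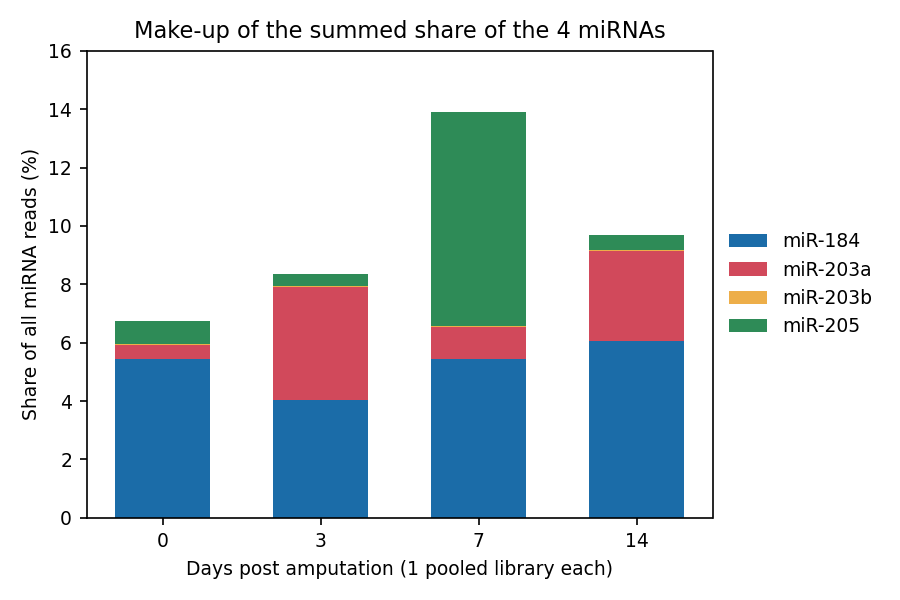
Share of all miRNA reads (%) taken by each of the 4 miRNAs, stacked, against days post amputation (1 pooled library each). The whole bar is 6.75%, 8.37%, 13.9% and 9.68%. The miR-205 segment is the largest at 7 dpa and the miR-203a segment is thick at 3 and 14 dpa, while miR-203b is too thin to see.

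Since these families are known from skin, ratios between the members within 1 library were taken as a view of the epidermis that needs no scaling. Which cells of the fin the reads came from was not tested. Reads of different miRNAs are taken up with different efficiency during library preparation, so the change of a ratio between libraries was compared rather than its value. This removes such differences only if they were the same in every library, which was not tested. There were 6 pairs. The widest swing was between miR-205 and miR-203a. Reads of miR-205 per read of miR-203a were 1.58 (Clopper-Pearson interval 1.56 to 1.60), 0.110 (0.108 to 0.112), 6.75 (6.45 to 7.07) and 0.167 (0.165 to 0.169). In read counts miR-205 led at 0 and 7 dpa and miR-203a led at 3 and 14 dpa, which does not rank their amounts in the tissue. Against 0 dpa, the ratio was 14.4-fold lower on day 3 (exact conditional interval 14.1 to 14.7), 4.28-fold higher on day 7 (interval 4.08 to 4.49) and 9.45-fold lower on day 14 (interval 9.28 to 9.62). From 3 to 7 dpa it changed 61.4-fold (58.5 to 64.5). Large ratio changes were common in these libraries: over all 9180 pairs of the 136 miRNAs with reads at both stages the median change from 3 to 7 dpa was 5.45-fold in either direction, and 91.4% of pairs changed less than this one. Pair and step were picked here as the widest swing, so that share is not one for a pair named beforehand. Against 0 dpa the median changes of all pairs were 3.67-fold, 5.01-fold and 4.46-fold at 3, 7 and 14 dpa, so that the 4.28-fold change at 7 dpa was below the median pair. Of the 153 listed miRNAs, 20 had 3 reads or fewer at 7 dpa. Counting error in miRNAs with few reads can widen the medians of all pairs, and its part was not measured. Between 3 and 14 dpa the same ratio changed by 1.52-fold, less than the 2.34-fold median of all pairs.

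Ratios of miR-203a and miR-205 to miR-184 were also taken, although a ratio cannot show which of its members moved. Reads of miR-203a per read of miR-184 were 0.0913, 0.952, 0.199 and 0.507, the later values being 10.4-fold, 2.18-fold and 5.55-fold the first. Of all pairs of miRNAs, 76.6%, 26.2% and 55.8% changed less than this at 3, 7 and 14 dpa. For miR-203a to miR-203b these shares were 73.6%, 30.7% and 72.0%. Reads of miR-205 per read of miR-184 were 0.144, 0.105, 1.35 and 0.0847. That ratio was 9.33-fold (exact conditional interval 9.08 to 9.58) the 0 dpa value at 7 dpa, and 1.38-fold (1.35 to 1.41) and 1.70-fold (1.68 to 1.73) lower at 3 and 14 dpa. The share of all pairs that changed less was 66.0% at 7 dpa, 13.2% at 3 dpa and 18.8% at 14 dpa. At 3 dpa miR-203a and miR-184 were close to equal in reads, and at 7 dpa miR-205 passed miR-184 in reads. Of the 6 pairs, miR-203b and miR-184 had the narrowest span, 2.30-fold over the 4 libraries. That span was the step from 3 to 14 dpa, where the median of all pairs was 2.34-fold and 49.1% changed less. Against 0 dpa, 6.11%, 5.30% and 23.7% of all pairs changed less at 3, 7 and 14 dpa. The change of this pair at 7 dpa was not distinguishable from none (0.864-fold, interval 0.670 to 1.10).

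**Figure D3:**
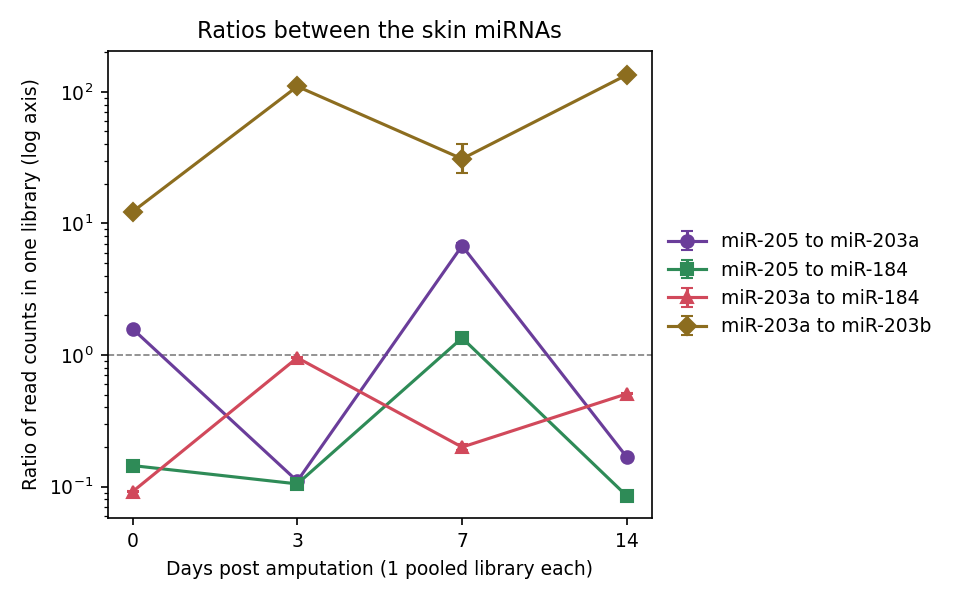
Ratios of read counts between pairs of the miRNAs within each library (log axis) against days post amputation. Bars are 95% Clopper-Pearson intervals and the dashed line marks equal counts. The ratio of miR-205 to miR-203a lies above 1 at 0 and 7 dpa (1.58 and 6.75) and below it at 3 and 14 dpa (0.110 and 0.167).

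A change was counted when it passed 1.5-fold (0.58 on the log2 scale) against 0 dpa, and the members were read against the 142 miRNAs that averaged 10 CPM or more, a filter that all 4 passed. At 3 dpa 1 member, miR-203a, was higher, where 18.3% of all miRNAs were, and 1 member, miR-205, was lower, where 66.2% were. At 7 dpa 2 members, miR-203a and miR-205, were higher, where 38.7% of all miRNAs were, and 0 were lower, where 38.0% were. At 14 dpa miR-203a was higher, where 14.1% were, and miR-203b and miR-205 were lower, where 67.6% were. Lower values at 3 and 14 dpa were thus the common case. The median miRNA had log2 changes of -1.35, 0.21 and -1.43. Relative to that median, miR-205 was 0.47 above it at 3 dpa and 0.82 above it at 14 dpa, and miR-203b 1.15 and 0.60 above it. miR-184 stood 0.93 and 1.59 above the median miRNA, and miR-203a 4.31 and 4.06 above it. At 7 dpa miR-184 was 0.21 and miR-203b 0.42 below the median miRNA, and miR-203a was 0.92 and miR-205 3.01 above it.

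**Figure D4:**
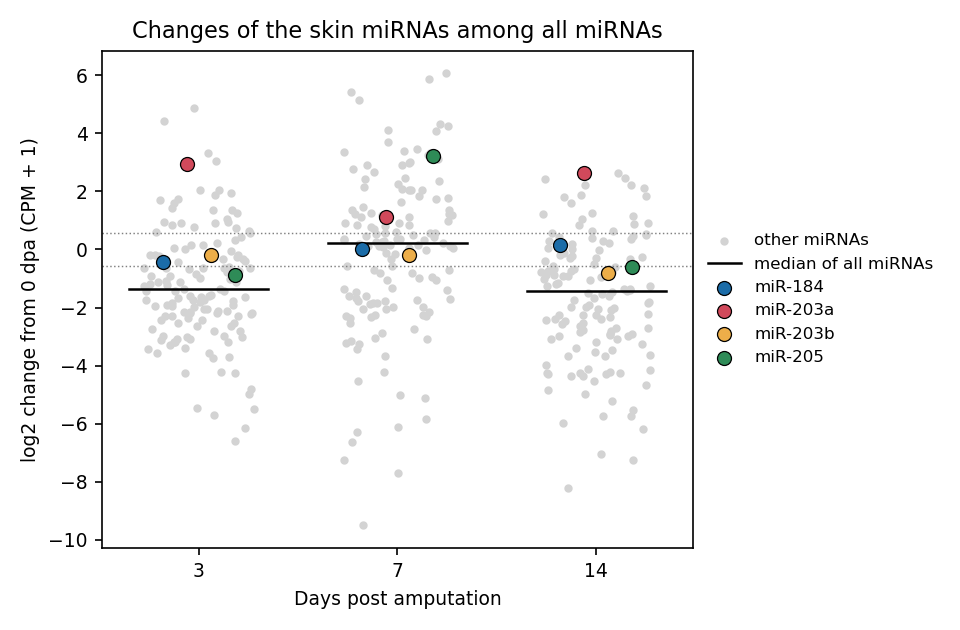
Change from 0 dpa in log2(CPM + 1) at 3, 7 and 14 dpa for the 142 miRNAs that averaged 10 CPM or more. Grey points are single miRNAs, black lines their medians (-1.35, 0.21 and -1.43), coloured points the 4 members, and dotted lines 1.5-fold. At 3 and 14 dpa all 4 members lie above the median line, and at 7 dpa miR-184 and miR-203b lie below it.

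The directions of the smaller changes depended on the scaling. A trimmed mean of log ratios moved the median of all miRNAs at 3 dpa from -1.35 to -0.16 and turned the balance of all miRNAs from 26 higher and 94 lower to 53 higher and 56 lower. At 14 dpa the balance went from 20 higher and 96 lower to 45 higher and 65 lower. Under it miR-205 was at 0.36 at 3 dpa and 0.56 at 14 dpa, and miR-203b was at 1.04 and 0.34. miR-184 was at 0.83 at 3 dpa and 1.32 at 14 dpa. By contrast, over 6 scalings miR-203a was higher at all stages, between 2.96 and 4.21 on day 3, between 0.81 and 1.98 on day 7 and between 2.63 and 4.18 on day 14. miR-205 at 7 dpa lay between 2.91 and 4.08 under the same scalings.

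**Figure D5:**
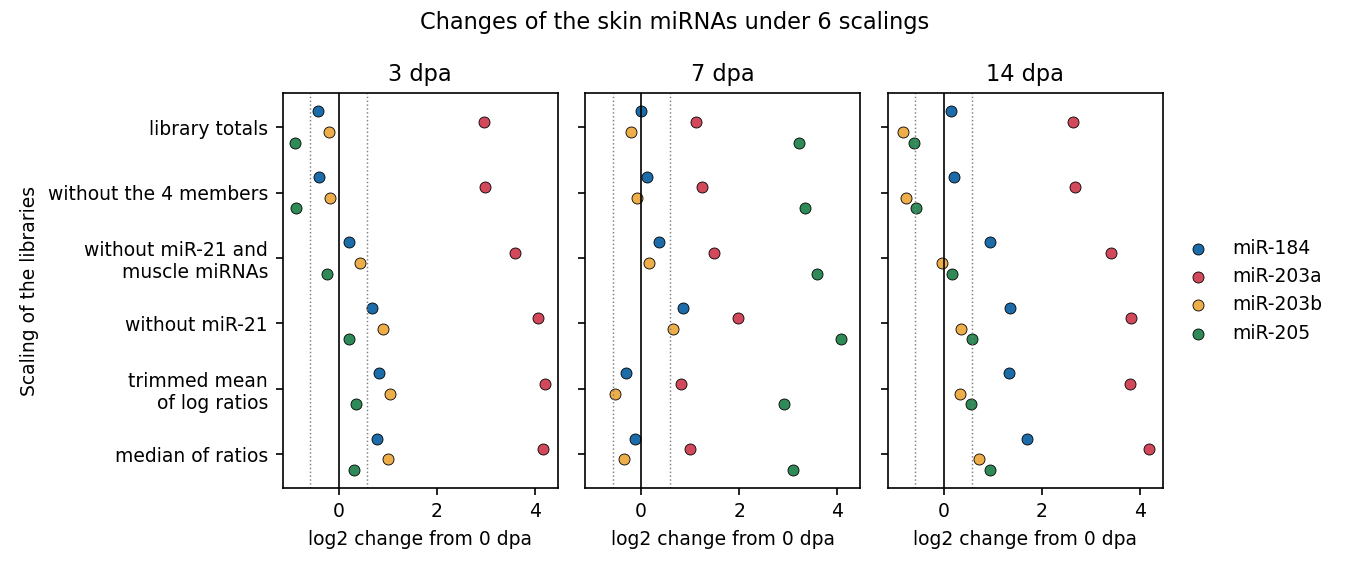
Log2 change from 0 dpa of the 4 miRNAs at 3, 7 and 14 dpa (panels) under 6 ways of scaling the libraries (rows). Solid lines mark no change and dotted lines 1.5-fold. miR-203a is right of 1.5-fold in all 3 panels under all 6 scalings, and miR-205 only at 7 dpa under all 6. Between scalings miR-184 and miR-203b cross the line of no change in at least 1 panel, and miR-205 crosses it at 3 and 14 dpa.

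The miRNAs with the most similar profiles were sought among the 120 that averaged 100 CPM or more, by the root mean square difference of the log2 changes at 3, 7 and 14 dpa. miR-130b was nearest to miR-205, at 0.29, followed by let-7b at 0.46 and miR-193a at 0.58, where the median miRNA was 2.36 away. miR-130b had log2 changes of -1.12, 3.31 and -0.18. For miR-203a the nearest were miR-21 at 0.74, miR-375 at 0.85 and miR-183 at 1.05, and none was as near as the neighbours of the other members. For miR-184 they were miR-93 at 0.31, miR-363 at 0.37 and miR-462 at 0.39, and for miR-203b miR-20a at 0.43, miR-184 at 0.59 and miR-19d at 0.60. Among the members themselves the nearest pair was miR-203b and miR-184. miR-205 was the 43rd nearest to miR-203a and miR-203a the 83rd nearest to miR-205.

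The miR-200 family, epithelial miRNAs that repress the zinc finger factors driving loss of epithelial character, was compared as another epithelial group. Its 4 members (miR-200a, miR-200b, miR-200c and miR-429a) summed to 1.53%, 1.40%, 2.85% and 1.07% of reads. Per read of this sum, the skin miRNAs had 4.41 (Clopper-Pearson interval 4.38 to 4.44), 5.96 (5.90 to 6.02), 4.87 (4.73 to 5.01) and 9.05 (8.99 to 9.12) reads. Set against it, miR-205 was 0.512, 0.302, 2.57 and 0.481 and miR-203a was 0.324, 2.75, 0.380 and 2.88. Against this epithelial sum miR-203a was slightly higher at 7 dpa than at 0 dpa, with intervals that did not overlap. Both values were far below those at 3 and 14 dpa. At 7 dpa the sum was mostly miR-200a, with 4207 of 5613 reads. Log2 changes from 0 to 7 dpa were 1.13 for miR-203a and 1.46, 0.36, 0.12 and -0.34 for miR-200a, miR-200b, miR-200c and miR-429a. Of the 4 only miR-200a rose more than miR-203a. The family itself was split. miR-200a had 7770.01, 4934, 21381 and 2822 CPM and miR-200c had 3905, 8065, 4234 and 7042 CPM. Reads of miR-200a per read of miR-200c were 1.99, 0.612, 5.05 and 0.401, highest at 7 dpa and below 1 at 3 and 14 dpa, as for miR-205 over miR-203a. From 3 to 14 dpa, however, this ratio fell while that of miR-205 to miR-203a rose. Only this pair of the family was taken, so the likeness carries no weight as evidence. miR-429a had 3544, 929, 2790 and 652 CPM, highest at 0 dpa, and miR-200b had 94.8, 106, 122 and 179 CPM.

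Transcripts for epidermal proteins were measured in 4 further libraries of polyA-selected mRNA, 1 per stage, with 38095865 to 43350285 reads. The genes were picked here by name, and other epidermal genes in the study's lists were not sought. The study had listed 11 assembled transcripts of 7 such genes as lower and 2 of inppl1b as higher, partly on these libraries. Their direction is therefore no independent evidence. Against 0 dpa, the 11 had a median log2 change of 0.74, 0.13 and 0.52 at 3, 7 and 14 dpa, below the median of the 43321 transcripts that averaged 1 CPM or more (1.05, 0.84 and 1.06). With a trimmed mean of log ratios the medians of the 11 were -0.17, -0.51 and -0.21, and with each replaced by the sum of all forms of its assembly component they were 1.03, 0.59 and 1.02. These last medians count the components of krt15, itgb4 and esrp2 again for each named form, so they are not medians over separate components. With library totals, 8 of the 11 were above their 0 dpa level and 3 below it at each later stage. All 11 were below the median transcript at 7 dpa, 9 were at 3 dpa and 10 at 14 dpa. The 11 were not held to the filter of 1 CPM, which both cldnb transcripts among them would fail. Those had 17, 23, 20 and 29 reads and 118, 4, 8 and 7 reads, and log2(CPM + 1) draws changes at such levels toward 0. inppl1b, which encodes the fish counterpart of SHIP2, had 0 reads at 0 dpa in both transcripts that the study named. The first had 9, 3 and 2 reads at 3, 7 and 14 dpa and the second 17, 6 and 15. Both were minor forms. All forms of the first one's component together had 613, 2413, 2598 and 2459 reads, with log2 changes of 1.95, 1.87 and 1.96, and those of the second one's had 945, 754, 945 and 1103, with -0.27, -0.14 and 0.24.

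Among these transcripts, 2 forms of krt15, a keratin of basal epidermal cells in mammals, and cldni, a claudin of epithelial tight junctions, changed against each other between the same stages. They were singled out after their values were seen. The first krt15 form had 1276, 2136, 796 and 1596 CPM and the second had 512, 302, 563 and 232 CPM. Reads of the first per read of the second were 2.49 (interval 2.45 to 2.53), 7.06 (6.93 to 7.20), 1.41 (1.39 to 1.44) and 6.87 (6.72 to 7.02). cldni had 440, 347, 532 and 277 CPM, and its reads per read of the first krt15 form were 0.345, 0.163, 0.669 and 0.174. The second ratio ordered the stages as the ratio of miR-205 to miR-203a did, from 7 dpa at the top through 0 and 14 dpa to 3 dpa. The first ratio ran in reverse, although its intervals at 3 and 14 dpa overlapped. How often other pairs of transcripts give this order was not counted, so the match carries no weight as evidence. Other epidermal transcripts did not follow cldni. evpla, an envoplakin gene, had 317, 649, 497 and 645 CPM and ppl, the gene of its partner periplakin, had 334, 762, 504 and 759 CPM, both lowest at 0 dpa and lower at 7 dpa than at 3 or 14 dpa. Reads of forms of 1 gene are split between them by estimation. By the methods of the study, libraries of both kinds were prepared for each RNA sample.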

How the data were processed

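Small RNA and polyA-selected mRNA libraries were sequenced on a Genome Analyzer IIx. For miRNAs, the authors clipped, trimmed and collapsed reads with the FASTX Toolkit and annotated tags of 20 to 25 bases with miRMiner against miRBase. For mRNA, they used Trimmomatic, Trinity and RSEM. Versions of these tools are not given in the sources used here. The deposited values are named as log CPM but are log2 of unscaled counts: 2 raised to each value was whole to within a relative difference of 3.47e-09. A listed 0 was taken as 0 reads.

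CPM was computed on column sums, and changes on log2(CPM + 1). The share of all miRNAs past 1.5-fold was taken over miRNAs averaging 10 CPM or more. Wilson and Clopper-Pearson intervals came from scipy 1.17.1. Exact conditional odds ratio intervals were solved numerically from its hypergeometric probabilities. The trimmed mean scaling and the odds ratio intervals were tested on simulated counts with known changes. Apart from those changes the simulated libraries shared the same composition, so they do not check the changes reported here. The 4760 repeated rows of the mRNA table were dropped. The members and gene lists were chosen with earlier results of these data known. Named were the members, the 3 miRNAs with the nearest profile to each among those of at least 100 CPM, and the miR-200 family. The muscle and blood miRNAs were named as library shares. Transcripts of epidermal genes and inppl1b were named where the study had listed them, with the genes picked here. Sequences were read from the study's supplementary list. Alternatives were other scalings, pseudocounts of 0.1 and 5, thinning, a 2-fold threshold and other filters.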

Additional observations from a re-analysis of the deposited data

Results flagged for a closer look

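miR-205 was over 1.5-fold higher than at 0 dpa at 7 dpa, with a log2 change of 3.22, and over 1.5-fold lower at 3 and 14 dpa, with -0.89 and -0.61, by the whole counting interval in each case. The lower values depend on the scaling: with a trimmed mean of log ratios, a median of ratios and totals without miR-21 they were 0.36, 0.32 and 0.22 at 3 dpa and 0.56, 0.94 and 0.58 at 14 dpa, and with totals without the 4 members the 14 dpa value was -0.56, short of 1.5-fold. The difference between stages was not tested, because each stage was 1 library. The log2 change of the ratio of miR-205 to miR-203a against 0 dpa was 2.10 at 7 dpa and -3.85 and -3.24 at 3 and 14 dpa. The ratio of miR-205 to miR-184 likewise had a log2 change of 3.22 at 7 dpa and -0.77 at 14 dpa. These differences between stages were not tested either.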

How the results depend on the processing

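No paired analysis was possible because each stage was 1 library. The log2 changes of the summed members, 0.31, 1.04 and 0.52 at 3, 7 and 14 dpa, were 1.56, 0.72 and 1.68 with a trimmed mean of log ratios, 1.52, 0.91 and 2.07 with a median of ratios, 1.42, 1.89 and 1.71 with totals without miR-21, 0.95, 1.41 and 1.30 also without muscle miRNAs, and 0.33, 1.15 and 0.57 without the members. Taken at face value with no scaling for depth they were -0.55, -3.91 and 0.69, and thinned to the 7 dpa depth the last was 0.53.

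At 3 dpa, 3 members were higher and 0 lower with a trimmed mean, a median of ratios or totals without miR-21, and 0 were lower also without muscle miRNAs or at a 2-fold threshold, against 1 and 1 as reported. At 14 dpa, 2, 4, 2 and 2 were higher and 0 lower under the same 4 scalings, 1 was lower without the members or at face value, and 0 at 2-fold. At 7 dpa, 4 were higher without miR-21, and at face value 0 were higher and 4 lower, with 3 lower at 3 dpa. Over all miRNAs at 3 dpa, 53 were higher and 56 lower with a trimmed mean, 49 and 57 with a median of ratios, 47 and 62 without miR-21, 12 higher at face value and 17 higher at 2-fold. At 7 dpa, 85 were higher without miR-21, and 3 higher and 137 lower at face value. At 14 dpa, 45, 59, 46 and 38 were higher under the 4 scalings, and 56 lower with a median of ratios.

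miR-205 at 3 dpa turned to 0.36, 0.32 and 0.22 with a trimmed mean, a median of ratios and totals without miR-21. At 14 dpa it turned to 0.56, 0.94 and 0.58, and to 0.17 also without muscle miRNAs. miR-203b at 14 dpa turned to 0.34, 0.72 and 0.36. At face value miR-203a was at -3.82 and miR-205 at -1.73 at 7 dpa. The median of the 11 epidermal transcripts at 3 dpa turned to -0.17 with a trimmed mean. With each replaced by its component sum, the medians at 7 and 14 dpa were 0.59 and 1.02. Both are past 1.5-fold, but the components of krt15, itgb4 and esrp2 were counted again for each named form. At 7 dpa the separate components were at -0.40 (krt15), 0.27 (cldni), 0.03 and -1.76 (cldnb), 0.59 (ppl), 0.65 (evpla), 1.10 (esrp2) and 1.53 (itgb4). Over 12 changes of single members, 91 of 132 alternative values kept both their direction and their side of the threshold. That threshold was 1.5-fold, or 2-fold in the 2-fold setting. The 132 include pseudocounts, thinning and the reading of a listed 0, which hardly move members with this many reads. The count is therefore no measure of how far the changes hold under other scalings.

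Thinning, a single random draw, gave ratios of miR-205 to miR-203a of 1.56, 0.103 and 0.164 at 0, 3 and 14 dpa, a fold change of 0.0662 at 3 dpa, ratios of miR-203a to miR-184 of 0.962 and 0.514 at 3 and 14 dpa with fold changes of 10.6 and 5.65, ratios of miR-205 to miR-184 of 0.142 and 0.0992 at 0 and 3 dpa with a fold change of 0.701, and a ratio of miR-205 to miR-203b of 10.9 at 3 dpa. The other 72 of 84 alternative values of the ratios stayed within their counting intervals. Reading a listed 0 as 1 read was added after seeing the data and changed no call of a member. By the likeness of centred levels over the 4 libraries, miR-130b and let-7b were still nearest to miR-205, and miR-183 in place of miR-21 was nearest to miR-203a. At 7 dpa the depth allows no finer statement on miR-203b than the interval given.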
